A study of Mus musculus with 2 samples.

Results

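A group of 10 genes that act on newly made collagen is described here in mitral valve cells of Fbn1 C1039G/+ and wild type mice. They were chosen by name, as 10 of the 32285 genes in the count files: the prolyl 4-hydroxylase subunits P4ha1, P4ha2 and P4ha3, the lysyl hydroxylases Plod1, Plod2 and Plod3, the prolyl 3-hydroxylase P3h1, the chaperones Serpinh1 and Fkbp10, and Sparc. Serpinh1 (HSP47) and Sparc (osteonectin) are collagen-binding proteins and not enzymes, and Fkbp10 (FKBP65) is a prolyl isomerase. Fibrillin-1, the product of Fbn1, builds the microfibrils of the extracellular matrix, and mice with 1 copy of the C1039G missense allele are a model of Marfan syndrome, in which the mitral valve thickens and prolapses. The Fbn1 C1039G/+ library was pooled from 3 mice and the wild type library from 5 mice, which carried unaltered Fbn1, all of the C57BL/6J strain and 1 month old. Valves were dissociated with enzymes and cells were captured by droplet for 3′ sequencing, in which each RNA molecule is counted once by its unique molecular identifier (UMI). With 1 library per genotype there is no replicate and no test: all intervals are 95% intervals of counting error only, and differences between genotypes cannot be told apart from differences between mice, pools or dissociations.

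Procollagen is made in the endoplasmic reticulum (ER). Prolyl 4-hydroxylation gives the triple helix its heat stability, and lysyl hydroxylation provides sites for sugars and for the crosslinks that lysyl oxidases later form outside the cell. Chaperones hold the helix on its way through the secretory pathway, and loss of several of these genes causes brittle bone or Ehlers-Danlos disorders in humans. In valves the collagen of the fibrosa layer is made by interstitial cells, the fibroblasts of the leaflet.

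The libraries held 9744 barcodes and 103663375 UMIs for Fbn1 C1039G/+ and 9509 barcodes and 100969482 UMIs for wild type, and 17 barcode sequences occurred in both. Barcodes with 1000 UMIs or more, of which no more than 20% were mitochondrial, numbered 9540 and 9395. Of these, 7768 (81.4%) in Fbn1 C1039G/+ and 7557 (80.4%) in wild type were interstitial, with at least 1% of UMIs from Dcn, Col1a1, Col1a2 and Col3a1. Among the rest, 318 and 250 were endothelial by Pecam1, Cdh5 and Emcn, and 880 and 800 were macrophages by C1qa, C1qb and C1qc. Lymphocytes (64 and 134) were read only beside the macrophage values, and barcodes that met both the macrophage and the endothelial rule (10 and 13) were not compared. Markers that the rules did not use were in place: 10 of 10 interstitial, 9 of 10 endothelial and 10 of 10 macrophage markers reached 20 CPM (UMIs per 1000000 UMIs of the class) in their own class in both libraries. Median depth was 10094.5 and 10086 UMIs in interstitial cells, 10918.5 and 10882.5 in endothelial cells, and 7387 and 8292.5 in macrophages. The remaining 500 and 641 barcodes were not compared either. Hemoglobin and melanocyte transcripts were found in them, and 10 of 10 interstitial markers also reached 20 CPM there in both libraries. Levels below are CPM of summed UMIs within a class and were not scaled to transcript length, so levels are compared within a gene and not between genes; shares of a family's UMIs are compared between classes or libraries for 1 gene at a time.

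In interstitial cells, the 3 catalytic alpha subunits of prolyl 4-hydroxylase did not move together between genotypes. P4ha1 (chr10:59323296-59373304, mm10) was at 53.8 CPM in Fbn1 C1039G/+ and 49.9 CPM in wild type, a ratio of 1.08 (1.03 to 1.13). P4ha2 (chr11:54100095-54131665) was at 30.2 and 32.6 CPM, a ratio of 0.925 (0.876 to 0.977). P4ha3 (chr7:100285520-100319699) was at 16.8 and 21.4 CPM, a ratio of 0.787 (0.734 to 0.844), and 3.61% of the 6563 measured genes had a lower ratio. P4ha1 was thus the subunit above wild type, and P4ha2 and P4ha3 were below it, all by less than 1.5-fold. A gene was measured at 20 CPM in either group and 50 UMIs over both, and P4ha3 met this through wild type alone.

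The lysyl hydroxylases were level or slightly higher in Fbn1 C1039G/+. Plod1 (chr4:147909753-147936767), which hydroxylates lysines of the helix, was at 73.2 CPM in Fbn1 C1039G/+ and 72.5 CPM in wild type, a ratio of 1.01 (0.975 to 1.05). Plod2 (chr9:92542223-92608428), the hydroxylase of telopeptide lysines and so of the pyridinoline type of crosslink, was at 148 and 131 CPM, a ratio of 1.13 (1.10 to 1.16). Plod3 (chr5:136987019-136996648), which also transfers sugars onto hydroxylysine, was at 53.6 and 45.4 CPM, a ratio of 1.18 (1.13 to 1.23). The interval of Plod1 included 1, and those of Plod2 and Plod3 did not.

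The genes with the highest ratios were Sparc, Serpinh1 and P3h1. Sparc (chr11:55394500-55423183), a matrix protein that binds the collagen helix outside the cell, was at 8022 CPM in Fbn1 C1039G/+ and 5769 CPM in wild type, a ratio of 1.39 (1.39 to 1.40). Serpinh1 (chr7:99345376-99353239), the collagen-specific chaperone, was at 803 and 628 CPM, a ratio of 1.28 (1.26 to 1.29). P3h1 (chr4:119232915-119248975), which modifies a proline of fibrillar alpha chains in a complex with Crtap and cyclophilin B, was at 49.2 and 39.4 CPM, a ratio of 1.25 (1.19 to 1.31). Among measured genes, 98.6% had a lower ratio than Sparc, 97.1% than Serpinh1 and 96.3% than P3h1. Fkbp10 (chr11:100415697-100424824), whose product works with the Plod2 enzyme, was at 115 and 106 CPM, a ratio of 1.08 (1.05 to 1.11).

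Promoter sequences are shown for P4ha2, Plod3 and Serpinh1, an enzyme whose level followed collagen production across cells, an enzyme that barely did, and the chaperone between them (values follow), so that their windows can be set side by side. RefSeq windows (GRCm38.p6) from 250 bases before to 50 after the start were matched for 8 of the 10 genes; Plod2 and Fkbp10 were not matched. Capitals mark the CCAAT box, the ACGTG core of hypoxia and bZIP factor sites, and the GC box GGGCGG, on either strand. P4ha2 is on the plus strand at chr11:54100674-54100973, inside the GENCODE gene, Plod3 on the plus strand at chr5:136986769-136987068, and Serpinh1 on the minus strand at chr7:99353190-99353489.
P4ha2: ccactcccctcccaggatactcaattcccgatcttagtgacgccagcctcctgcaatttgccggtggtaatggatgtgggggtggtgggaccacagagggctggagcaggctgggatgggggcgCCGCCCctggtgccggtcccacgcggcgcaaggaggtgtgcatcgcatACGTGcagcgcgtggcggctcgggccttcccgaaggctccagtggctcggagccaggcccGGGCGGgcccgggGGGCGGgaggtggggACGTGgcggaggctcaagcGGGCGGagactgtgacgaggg
Plod3: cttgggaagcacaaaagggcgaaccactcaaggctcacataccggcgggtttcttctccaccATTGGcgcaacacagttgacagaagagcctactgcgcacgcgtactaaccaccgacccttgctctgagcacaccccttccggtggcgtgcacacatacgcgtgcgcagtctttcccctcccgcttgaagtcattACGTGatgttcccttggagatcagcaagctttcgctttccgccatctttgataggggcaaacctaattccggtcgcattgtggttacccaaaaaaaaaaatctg
Serpinh1: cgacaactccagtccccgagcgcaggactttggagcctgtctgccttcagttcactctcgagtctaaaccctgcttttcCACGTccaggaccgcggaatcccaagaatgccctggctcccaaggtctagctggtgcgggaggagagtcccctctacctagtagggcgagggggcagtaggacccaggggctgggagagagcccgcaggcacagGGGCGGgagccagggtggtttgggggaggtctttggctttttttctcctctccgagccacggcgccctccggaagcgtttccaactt

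The P4ha2 window held 4 GC boxes, 2 ACGTG cores and 26 CpG. Plod3 held no GC box, 1 ACGTG core, 1 CCAAT box and 19 CpG, and Serpinh1 held 1 GC box, 1 ACGTG core and 16 CpG. Over 32851 RefSeq windows of the same length, 35.7% held a GC box, 19.6% an ACGTG core and 37.4% a CCAAT box, and the median number of CpG was 7. The longer ER stress element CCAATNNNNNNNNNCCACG, with 9 free bases, was in 0 of the 8 matched genes and in 0.119% of windows, and overlaps CCAAT where both occur. The P4ha3 window held 5 GC boxes and 30 CpG, and P4ha1 held 2 and 32, and these letters are a description of the windows and no evidence of binding. For Sparc the RefSeq window lies inside the GENCODE gene and had 4 CpG and none of the motifs.

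Of the 10 genes, 0 passed 1.5-fold with an interval excluding 1 in interstitial cells, where 0.945% of measured genes passed in the higher and 1.42% in the lower direction. By interval alone, 7 of 10 were above 1, against 41.6% of measured genes, and 2 below, against 21.6%. Their median log2 ratio was 0.14, against 0.03 over all measured genes, and the medians of the members' lower and upper bounds were 0.11 and 0.19. Col1a1, which encodes the alpha 1 chain of type I collagen, had a ratio of 1.23 (4304 against 3508 CPM). The Fbn1 C1039G/+ interstitial cells also had fewer transcripts of genes induced by dissociation: 10 of 14 such genes were lower and Hspa1a and Hspa1b higher by the 1.5-fold rule, with a median log2 ratio of -1.04. Summed macrophage markers were at 363 and 480 CPM and endothelial markers at 323 and 242 CPM, and erythroid markers at 476 CPM in Fbn1 C1039G/+ and 1056 CPM in wild type. The part of these differences in the ratios was not tested.

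**Figure D1:**
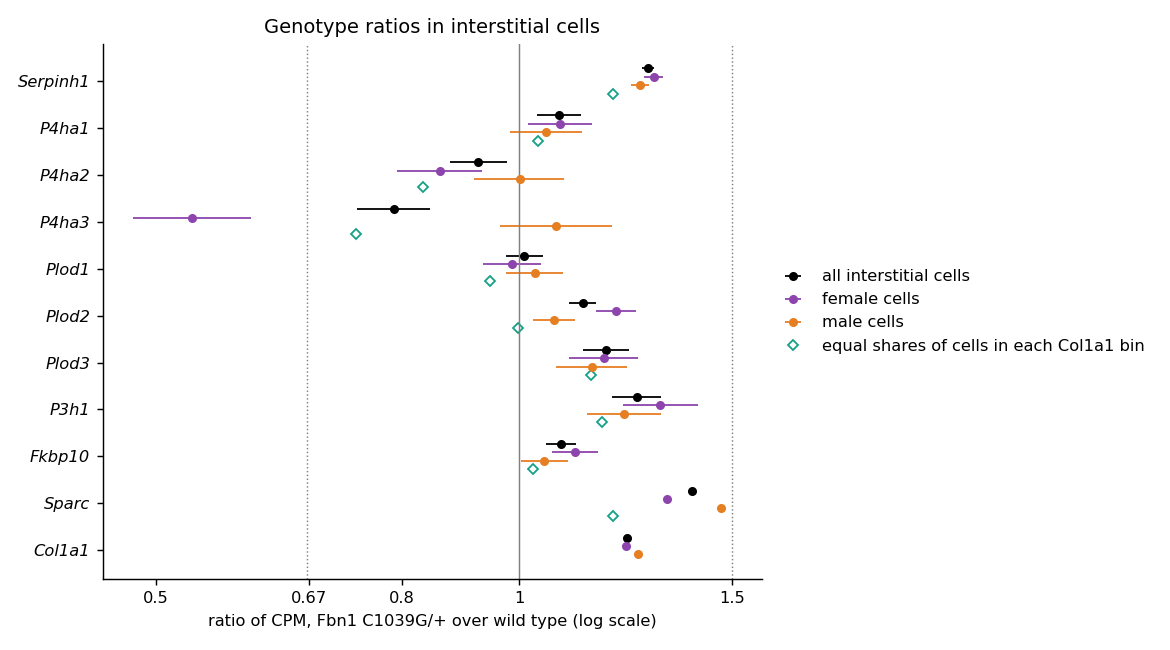
Ratios of CPM in interstitial cells, Fbn1 C1039G/+ over wild type, on a log axis, with 95% counting intervals as bars; dotted lines mark 1.5-fold in either direction. Black points are all interstitial cells, purple female cells, orange male cells, and open diamonds give both libraries the same share of cells in each of 5 Col1a1 bins; P4ha3 stands at 0.536 in female and 1.07 in male cells.

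Each pool held cells of both sexes, which were told apart by Xist and Y-linked transcripts. The genotype ratios of P4ha3 are given for each sex. In female cells it was at 12.6 CPM in Fbn1 C1039G/+ (3731 cells) and 23.6 CPM in wild type (3496 cells), a ratio of 0.536 (0.479 to 0.600), and it was the only 1 of the 10 to pass the 1.5-fold rule there, against 1.38% of genes called higher and 1.6% lower. In male cells it was at 21.1 CPM in Fbn1 C1039G/+ (2920 cells) and 19.7 CPM in wild type (3130 cells), a ratio of 1.07 (0.964 to 1.19), and 0 of 10 passed, against 0.672% of genes higher and 1.77% lower. In female cells P4ha3 reached 20 CPM through wild type alone. The intervals cover counting error over cells and not the spread between mice, and with 1 library per genotype the difference between the sexes was not tested. For comparison, the Sparc ratio was 1.32 in female and 1.47 in male cells, and Serpinh1 was at 1.29 and 1.26. The number of mice of each sex per pool is not given in the labels, and a sex within 3 mice may be a single animal, so sex and individual cannot be told apart.

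Outside the interstitial class the genes separated into broadly and narrowly detected ones. In endothelial cells, P4ha2 and Plod3 were above the interstitial level: P4ha2 was at 47.4 CPM in endothelial against 30.2 in interstitial cells of Fbn1 C1039G/+ (1.57-fold, 1.37 to 1.80) and at 55.5 against 32.6 CPM in wild type (1.70-fold, 1.47 to 1.96). Plod3 was at 82.7 against 53.6 CPM in Fbn1 C1039G/+ (1.54-fold) and at 72.4 against 45.4 CPM in wild type (1.59-fold). These were the 2 genes higher by the 1.5-fold rule in each library, where 26.9% of measured genes in Fbn1 C1039G/+ and 27.6% in wild type were. Serpinh1, Plod2, P3h1 and Sparc were lower in both libraries, and P4ha3 also in wild type. That makes 4 lower of 9 measured in Fbn1 C1039G/+, against 14.9% of genes, and 5 of 10 in wild type, against 14.8%. P4ha3 is the added call: its interstitial level reached 20 CPM in wild type (21.4 CPM) and not in Fbn1 C1039G/+ (16.8 CPM), so it could only be called lower. P4ha1 and Plod1 differed by less than 1.2-fold in either library.

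The members that were low in endothelial cells were not equally low. Plod2 stood at 24.3% of its interstitial level in Fbn1 C1039G/+ (35.9 CPM) and 22.0% in wild type (28.8 CPM), and Sparc at 10.8% (868 CPM) and 11.1% (639 CPM). P4ha3 was at 3.08 and 4.23 CPM, from 15 and 16 UMIs. Serpinh1 kept 55.9% and 59.7%, at 449 and 375 CPM, although Col1a1 was at 2.05% and 1.55%. For comparison, 9 interstitial markers were read in endothelial cells, with Vim (106% and 90.3%) left out. Their median was 12.2% of the interstitial level in Fbn1 C1039G/+ (2.20% to 412%) and 11.1% in wild type (2.34% to 232%). Sparc was near these medians and above the lowest marker, Prg4. Some of these markers are expressed by the endothelial cells of valves, and the share of free RNA in the Sparc value was not tested.

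In macrophages, P4ha1, Plod1 and Plod3 kept the largest part of their interstitial level. P4ha1 was at 45.5 CPM in Fbn1 C1039G/+ and 44.6 CPM in wild type, 84.5% and 89.5% of the interstitial level. Plod1 was at 46.1 and 41.3 CPM (63.0% and 57.0%), and Plod3 at 34.4 and 34.2 CPM (64.3% and 75.3%). P4ha1 was not lower by the 1.5-fold rule in either library and Plod3 was not in wild type, while Plod1 was lower in both. By the 1.5-fold rule 8 of 9 members measured in Fbn1 C1039G/+ were lower than in interstitial cells, against 34.7% of genes. In wild type 8 of 10 were, against 33.9%. P4ha2, Plod2, P3h1 and Fkbp10 in both libraries, and P4ha3 in wild type, reached 20 CPM in interstitial cells alone. These members could only be called lower. None of the measured members was higher, against 23.1% and 23.7% of genes.

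The low macrophage values of several genes lay within the range of interstitial markers in the same cells. That range was 1.42% to 3.72% of the interstitial level in Fbn1 C1039G/+ and 2.29% to 7.68% in wild type. The range leaves out the marker Vim, which was at 21.2% and 23.7%. Serpinh1 at 3.1% and 6.94%, Plod2 at 2.33% and 4.16% and Sparc at 2.30% and 4.14% were inside it in both libraries. P4ha2 (24.7% and 16.7%) and P3h1 (6.99% and 16.4%) were above it in both. Of these values, only P4ha2 in Fbn1 C1039G/+ was also above Vim. In lymphocytes the same 9 markers were at 0% to 4.40% of the interstitial level in Fbn1 C1039G/+ and 0.639% to 2.54% in wild type. Serpinh1 was there at 1.61% and 1.75%, from 4 and 9 UMIs, and Sparc at 1.25% and 0.89%, from 31 and 42 UMIs. The part of free or carried-over RNA in the macrophage values was not tested. Per cell, after thinning each cell to 3000 UMIs, Serpinh1 had a UMI in 85.9% of interstitial cells in Fbn1 C1039G/+ and 79.6% in wild type (97.6% and 97.0% unthinned), and in 4.50% and 4.28% of macrophages. P4ha1 had one in 14.6% and 13.3% of interstitial cells and in 12.4% and 12.8% of macrophages. In endothelial cells, which had little Col1a1, Serpinh1 had a UMI in 66.8% and 60.2% of cells. P4ha1 was found about as often in macrophages as in interstitial cells.

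**Figure D2:**
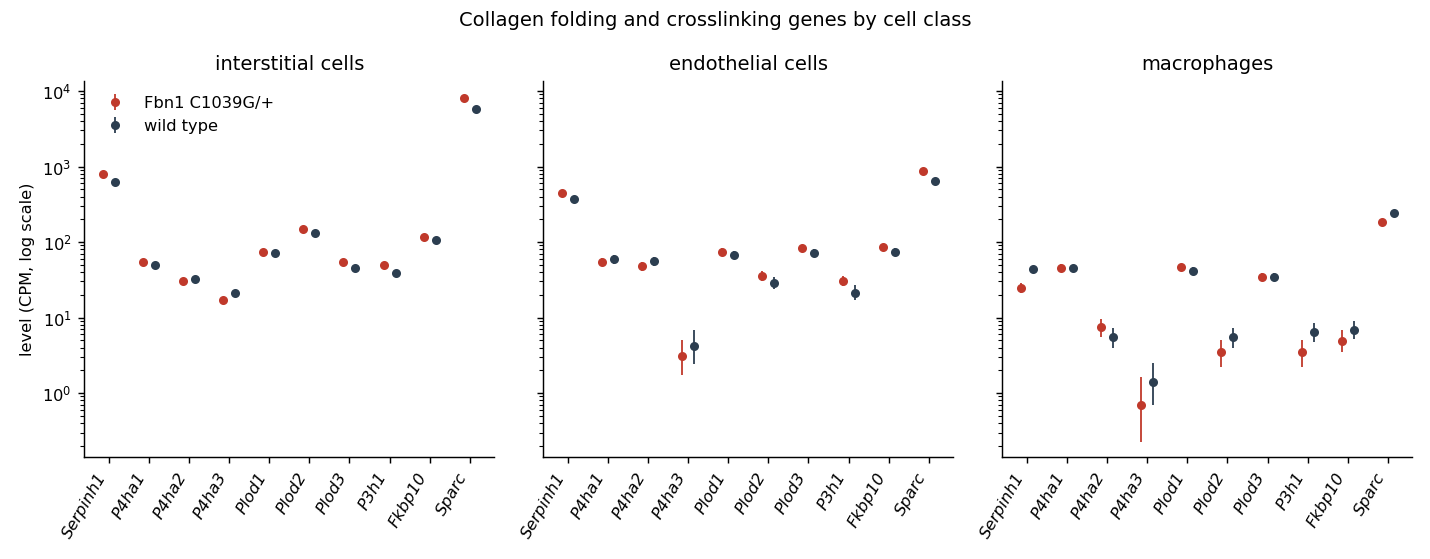
Levels in CPM on a log axis with 95% Poisson intervals, in interstitial cells, endothelial cells and macrophages, with Fbn1 C1039G/+ in red and wild type in dark blue. Serpinh1, Plod2 and Sparc drop from the interstitial panel to the macrophage panel, while P4ha1, Plod1 and Plod3 stay within 2-fold.

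Between genotypes, 0 of 9 measured members passed in endothelial cells, against 3.22% of genes higher and 3.23% lower, and 1 of 5 passed in macrophages, against 1.43% higher and 3.62% lower. That gene was Serpinh1, at 24.9 CPM in Fbn1 C1039G/+ and 43.6 CPM in wild type macrophages, a ratio of 0.572 (0.475 to 0.687). Col1a1 in the same cells was at 84.7 and 140 CPM, a ratio of 0.606. The median of 9 interstitial markers, without Vim, was 2.56% and 4.54% of the interstitial level. In endothelial cells the ratios of Sparc (1.36), Serpinh1 (1.20) and P3h1 (1.43) had intervals above 1, and Col1a1 was higher there as well (88.1 against 54.4 CPM, 1.62-fold).

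The make-up of both enzyme families was different in each class, with small differences between genotypes. P4ha1 gave 53.4% (52.3 to 54.4) of the alpha-subunit UMIs of interstitial cells in Fbn1 C1039G/+ and 48.0% (46.9 to 49.1) in wild type. In macrophages it gave 84.8% and 86.7%, and in endothelial cells 52.0% and 49.8%. P4ha3 gave 16.7% and 20.6% in interstitial cells but 2.93% and 3.56% in endothelial cells. Among lysyl hydroxylases, Plod2 gave 53.9% (53.2 to 54.5) in Fbn1 C1039G/+ and 52.6% (52.0 to 53.3) in wild type interstitial cells. It gave 18.6% and 17.1% in endothelial cells and 4.10% and 6.73% in macrophages. P4hb, the beta subunit that pairs with each alpha subunit and is also protein disulfide isomerase, was at 226 and 217 CPM in interstitial cells, so that there were 44.7 and 47.8 alpha-subunit UMIs per 100 P4hb UMIs. That figure was 47.6 and 42.3 in macrophages, and 51.7 and 65.9 in endothelial cells.

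**Figure D3:**
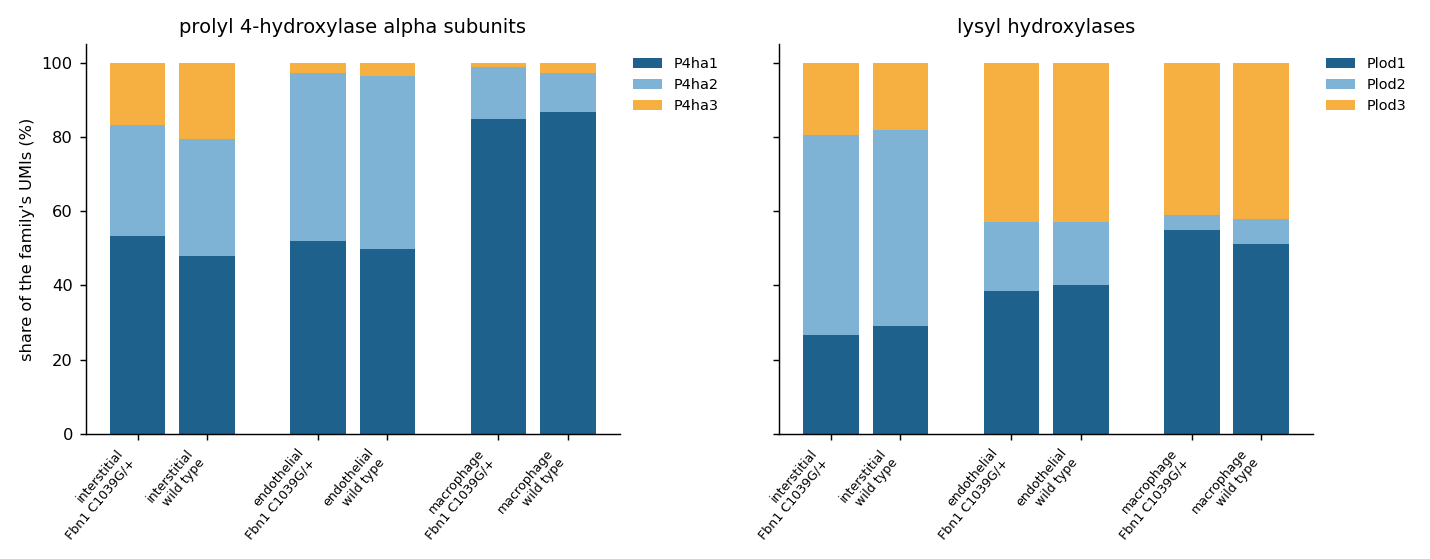
Share of each gene in the UMIs of its enzyme family, in percent, by class and library, with Fbn1 C1039G/+ left of wild type in each pair. The Plod2 share is 53.9% and 52.6% in interstitial cells, 18.6% and 17.1% in endothelial cells, and 4.10% and 6.73% in macrophages.

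Across interstitial cells the members were related to the production of type I collagen. The cells of each library were ranked by the share of their UMIs that came from Col1a1 and cut into quintiles of equal cell number. The median Col1a1 share was 0.149% in the lowest and 0.776% in the highest quintile of Fbn1 C1039G/+, and 0.104% and 0.621% in wild type. From the lowest to the highest quintile, 8 of 10 members in Fbn1 C1039G/+ and 9 of 10 in wild type were higher by the 1.5-fold rule, and 0 were lower. Of all measured genes, 6.09% and 8.73% were higher and 7.69% and 8.58% lower. The members' median log2 ratio was 0.76 in Fbn1 C1039G/+ and 0.95 in wild type, against -0.13 and -0.08 over all measured genes. The medians of the members' lower and upper bounds were 0.66 and 0.91 in Fbn1 C1039G/+, and 0.85 and 1.05 in wild type. P4ha3 in both libraries and P4ha2 in both reached 20 CPM in the highest quintile and not in the lowest, so their place in these counts depends on that.

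The steepest member was Sparc. Across the 5 quintiles, from low to high, its level was 3678, 5969, 7394, 9301 and 13295 CPM in Fbn1 C1039G/+, a highest-over-lowest ratio of 3.61, and 1897, 3470, 4831, 6643 and 10765 CPM in wild type, a ratio of 5.68. Each step was upward, and Fbn1 C1039G/+ was above wild type in each quintile. Its quintiles were cut at higher Col1a1 shares, so they do not compare the genotypes at equal share. In bins of matched share the Sparc ratio was 1.42 in the lowest and 1.10 in the highest bin. Plod2 and P4ha2 followed. Plod2 was at 82.7 CPM in the lowest and 235 CPM in the highest quintile of Fbn1 C1039G/+ (2.84-fold, 2.67 to 3.03) and at 66.6 and 236 CPM in wild type (3.54-fold, 3.30 to 3.80). P4ha2 was at 19.6 and 50.8 CPM in Fbn1 C1039G/+ (2.59-fold, 2.27 to 2.96) and at 17.8 and 51.9 CPM in wild type (2.91-fold, 2.53 to 3.35). The highest quintile was cut at a higher Col1a1 share in Fbn1 C1039G/+; at matched shares Plod2 and P4ha2 were below wild type in the highest bin (values follow).

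Within each enzyme family the genes had different slopes. P4ha2 (2.59-fold in Fbn1 C1039G/+ and 2.91-fold in wild type) was steeper than P4ha1 (1.43 and 1.56), and Plod2 (2.84 and 3.54) was steeper than Plod1 (1.71 and 1.86) and Plod3 (1.22 and 1.32), with intervals that did not overlap within a library. P4ha2 gave 25% of the alpha-subunit UMIs in the lowest and 36.1% in the highest quintile of Fbn1 C1039G/+, and 24.0% and 36.7% in wild type. Plod2 gave 44.8% and 60.9% of the lysyl hydroxylase UMIs in Fbn1 C1039G/+, and 43.4% and 62.4% in wild type. Serpinh1 was at 596 and 964 CPM in Fbn1 C1039G/+ (1.62-fold) and at 401 and 814 CPM in wild type (2.03-fold). P3h1 (1.72 and 2.15), Plod1 and Fkbp10 (1.51 and 1.77) had similar slopes, P4ha3 was at 1.97 and 1.67, and Plod3 had the lowest ratio.

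Col1a1 itself differed 6.21-fold and 7.36-fold, but the ranking by its share largely sets that, and likewise the ratios to Col1a1 given next. For each 1000 Col1a1 UMIs there were 412 Serpinh1 UMIs in the lowest and 108 in the highest quintile of Fbn1 C1039G/+, and 400 and 110 in wild type. Col1a2, whose chain joins the trimer of type I collagen, differed 5.11-fold and 5.73-fold, close to the Sparc ratio in wild type. Depth, sex and other transcripts moved along the same ranking. Between the lowest and the highest quintile median depth was 8969.5 and 10888 UMIs in Fbn1 C1039G/+ and 8701.5 and 11537 in wild type, and female cells made up 60.2% and 35.3%, and 53.0% and 36.6%. Summed macrophage markers were at 722 and 181 CPM in Fbn1 C1039G/+ and at 809 and 304 CPM in wild type. Endothelial markers were at 590 and 245 CPM, and at 343 and 229 CPM, and mural markers at 525 and 304 CPM, and at 575 and 323 CPM. The dissociation genes were at 3044 and 2561 CPM, and at 7134 and 4428 CPM. Ranked by Col1a1 share within 10 strata of depth, the members' median was 0.65 in Fbn1 C1039G/+ and 0.89 in wild type, against -0.13 and -0.09 over all measured genes. The part of the other measures was not tested.

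**Figure D4:**
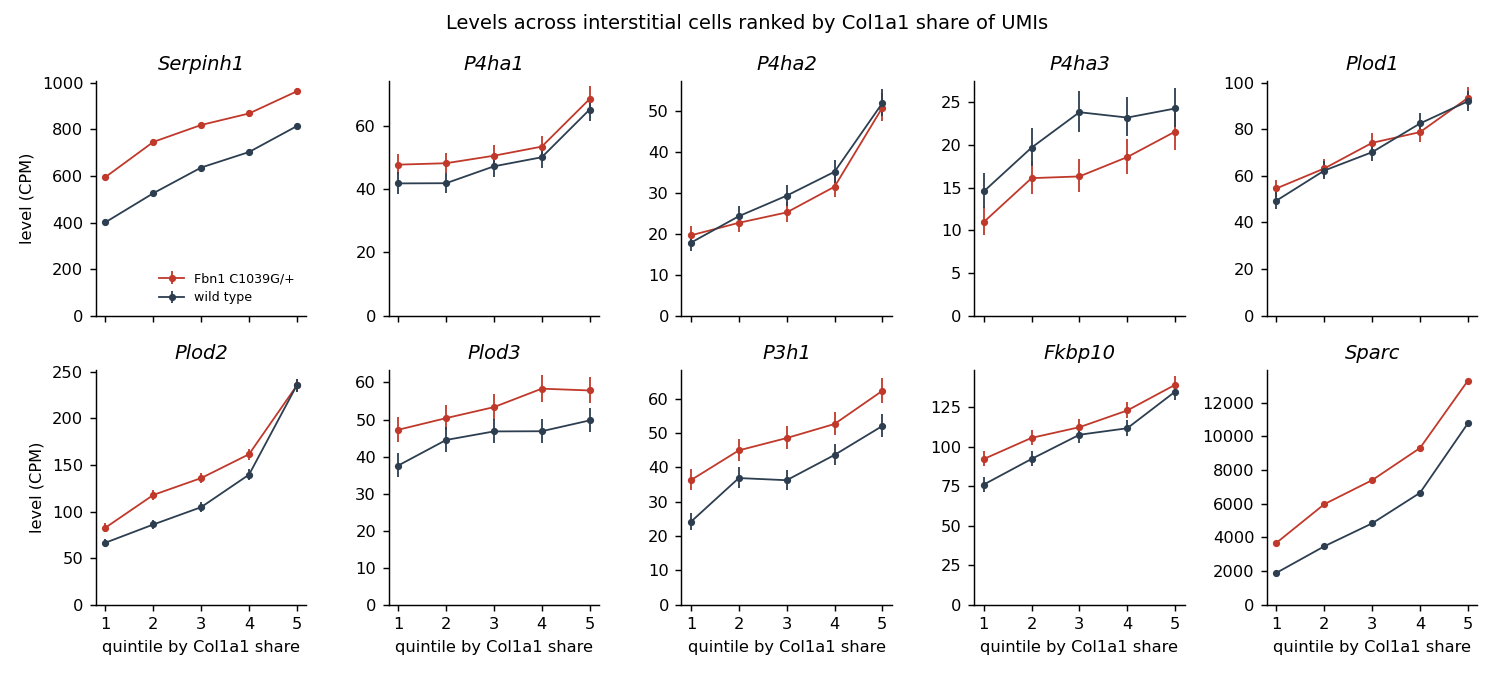
Levels in CPM of each gene in 5 quintiles of interstitial cells ranked by Col1a1 share, low to high, with 95% Poisson intervals, in Fbn1 C1039G/+ (red) and wild type (dark blue). Sparc, Plod2 and P4ha2 climb most, Plod3 least, and the P4ha3 line of Fbn1 C1039G/+ runs below that of wild type.

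**Figure D5:**
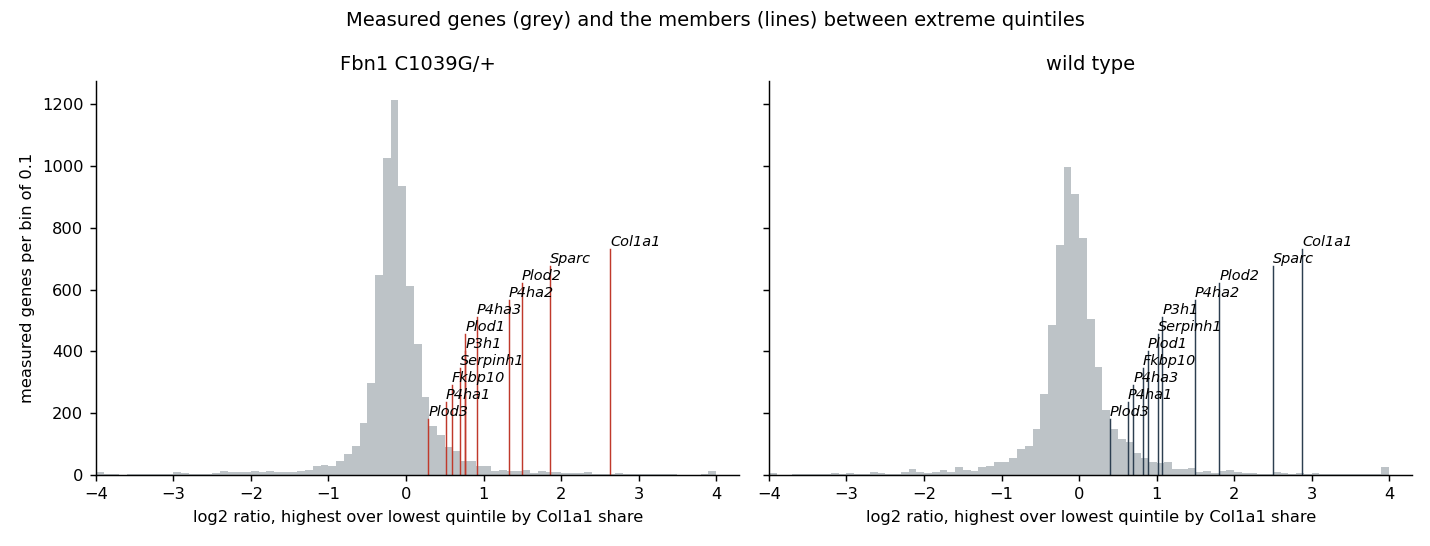
Number of measured genes per bin of 0.1 in the log2 ratio of the highest over the lowest Col1a1 quintile, for Fbn1 C1039G/+ (left) and wild type (right), with values beyond 4 drawn in the end bins. Lines mark the 10 members and Col1a1, and their heights only separate the names; the members lie to the right of the bulk of genes, whose medians are -0.13 and -0.08.

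Because more Fbn1 C1039G/+ cells had a high Col1a1 share, the genotypes were also compared within 5 bins of Col1a1 share set on both libraries together, the highest of which held 24.8% of Fbn1 C1039G/+ and 15.1% of wild type cells. Serpinh1 (1.14 to 1.28), Sparc (1.10 to 1.42) and Plod3 (1.11 to 1.20) had ratios with intervals above 1 in all 5 bins, and P3h1 (1.09 to 1.28) in 4. In the highest bin P4ha2 was at 46.9 CPM in Fbn1 C1039G/+ and 53.6 CPM in wild type, a ratio of 0.875 (0.796 to 0.962). Over the bins P4ha2 (0.717 to 0.965) and P4ha3 (0.649 to 0.927) had intervals below 1 in 4 of 5 bins. The Sparc ratio was 1.42 in the lowest bin, at 3072 against 2163 CPM, and 1.10 in the highest, at 12683 against 11519 CPM. Plod2 was at 1.11 (1.02 to 1.21) in the lowest and 0.872 (0.835 to 0.910) in the highest bin, at 223 against 256 CPM. With the 5 bins given equal weight in both libraries, Sparc and Serpinh1 each stood at 1.20, Plod2 at 0.998, and the members' median log2 ratio was 0.043, against 0.041 over all measured genes.

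Per cell, Sparc was the member closest to Col1a1. Over interstitial cells thinned to 3000 UMIs (7476 in Fbn1 C1039G/+ and 7517 in wild type), its Pearson correlation with Col1a1 on the log2(UMI + 1) scale was 0.66 in Fbn1 C1039G/+ and 0.69 in wild type, a rank of 2 among 6555 genes in each library. Serpinh1 (0.21 and 0.24) ranked 69 and 66, and Plod2 (0.18 and 0.22) ranked 80 and 79. The other 7 members lay between 0.02 and 0.10, at mean counts of 0.0499 to 0.339 UMIs per thinned cell, where a low correlation cannot be read as a lack of relation. All cells of a library share its free RNA, and these values are descriptions.

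Likeness to each member was measured by the mean correlation of the 2 libraries. Sparc was most like Col1a2 (0.70), Col1a1 (0.68) and Ecrg4 (0.52), and Serpinh1 was most like Sparc (0.27), Col3a1 (0.25) and Col1a1 (0.22). Plod2 had another set, Fibin (0.23), Thbs1 (0.22) and the collagen-binding proteoglycan Fmod (0.22), and P4ha2 shared Fmod (0.12) and Fibin (0.12) with it, beside Abi3bp (0.12). For the other members the highest values were low, at 0.03 to 0.10. P4ha1 came with Ogn, Sfrp2 and Col1a1, P4ha3 with Thbs1, Meox1 and Pamr1, Plod1 with Col1a2, Col1a1 and Sparc, and Plod3 with Cxcl9, Grk5 and Nupr1. The libraries differed for Plod3: its correlation with Cxcl9 was 0.064 in Fbn1 C1039G/+ and 0.0005 in wild type. P3h1 came with Sparc, Col1a1 and Fstl1, and Fkbp10 with Sparc, Col1a1 and Col1a2. Among the 45 pairs of members, Serpinh1 with Sparc (0.27) and Plod2 with Sparc (0.20) were the closest, and the remaining pairs were below 0.10.

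Within the interstitial class, cells with cartilage and tendon transcripts had more P4ha2 and Plod2 by the 1.5-fold rule, and Serpinh1 was within it. Cells with at least 5 UMIs of Cilp2, Chad and Thbs4, genes of cartilage and tendon, numbered 1366 in Fbn1 C1039G/+ and 1476 in wild type. P4ha2, Plod2 and Sparc were higher in them by the 1.5-fold rule in both libraries, against 3.39% and 3.83% of genes. None was lower, against 5.41% and 5.88%. That is 3 of 10 measured members in wild type. In Fbn1 C1039G/+ P4ha3 (19.7 and 16.1 CPM) was not measured and could not be called. P4ha2 was at 53.2 CPM in these cells and 24.2 CPM in other interstitial cells of Fbn1 C1039G/+ (2.20-fold), and at 53.5 and 26.5 CPM in wild type (2.02-fold). Plod2 was at 250 and 122 CPM in Fbn1 C1039G/+ (2.06-fold) and at 238 and 99.9 CPM in wild type (2.38-fold). Serpinh1 was at 806 and 803 CPM in Fbn1 C1039G/+, a ratio of 1.00 (0.986 to 1.02), and at 696 and 609 CPM in wild type, a ratio of 1.14 (1.12 to 1.17) with an interval above 1. Col1a1 was 2.10-fold and 2.33-fold higher. Cells with at least 3 Pappa2 UMIs (193 and 296) also had P4ha2 and Plod2 above Serpinh1, with smaller ratios. P4ha2 was at 1.66 and 1.33, Plod2 at 1.33 and 1.39, and Serpinh1 at 0.918 and 1.02 of other interstitial cells.

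Cells with at least 3 Notch3 UMIs, a gene of mural cells, numbered 124 and 167 and showed the opposite order. Serpinh1 was at 1163 CPM in them and 795 CPM in other interstitial cells of Fbn1 C1039G/+, a ratio of 1.46 (1.40 to 1.53), and at 895 and 621 CPM in wild type, a ratio of 1.44 (1.38 to 1.51), just under the 1.5-fold rule. Plod2 was at 0.712 of the other cells in Fbn1 C1039G/+ and 0.595 in wild type, and Col1a1 at 0.830 and 0.900. In Notch3 cells 3 of 10 members were lower by the 1.5-fold rule in wild type (P4ha2, P4ha3 and Plod2), against 7.79% of genes. P4ha2 (11.3 CPM) and P4ha3 (7.84 CPM) reached 20 CPM in the other cells alone, so they could only be called lower. In Fbn1 C1039G/+ 0 were lower, against 7.05%, and P4ha3 (10.7 and 17.0 CPM) was not measured. None was higher in either library, against 10.7% and 12.1%. Cells with at least 5 C3 UMIs (250 and 481) had Serpinh1 at 1.14 and 1.25 of other cells, and Plod2 at 0.695 and 0.569. In cells with at least 3 Rspo3 UMIs (935 and 1383), Sparc was the member lower by the rule, at 0.663 in Fbn1 C1039G/+ and 0.585 in wild type, beside Col1a1 at 0.675 and 0.623, against 2.69% and 3.21% of genes called lower, and none was higher, against 2.18% and 1.89%. Rspo3 cells made up 12.0% of interstitial cells in Fbn1 C1039G/+ and 18.3% in wild type. Selection by UMI number favours deep cells: the median was 10951.5 UMIs in the cartilage-type cells of Fbn1 C1039G/+ against 9845 in the others, and 11347 against 9764 in wild type.

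Other genes of the collagen pathway were read from lists of partners. Of 13 partners in modification and folding, 0 passed the 1.5-fold rule between genotypes (0.945% of all measured genes higher and 1.42% lower), with a median log2 ratio of 0.09, against 0.03 over all measured genes. Fkbp11 was at 37.8 CPM in Fbn1 C1039G/+ and 26.6 CPM in wild type (1.42-fold), and Colgalt2, a collagen galactosyltransferase, at 16.5 and 22.7 CPM (0.724-fold). Across the Col1a1 quintiles, 4 of 12 measured partners in Fbn1 C1039G/+ and 6 of 13 in wild type were higher, against 6.09% and 8.73% of all measured genes, and 0 lower, against 7.69% and 8.58%. The same shares stand behind each count across quintiles that follows, with all-gene medians of -0.13 and -0.08. P3h2, a second prolyl 3-hydroxylase, differed 4.03-fold and 5.03-fold, more than P3h1 did.

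Genes for the steps after folding and general ER chaperones were counted in the same way. Of 8 measured genes of propeptide cleavage and lysyl oxidation, 7 were higher across quintiles in each library, with a median log2 ratio of 1.27 in Fbn1 C1039G/+ and 1.78 in wild type. Loxl2, a lysyl oxidase, differed 3.56-fold and 5.90-fold, and Bmp1, the C-proteinase of procollagen, 1.36-fold and 1.35-fold. Of 11 export genes, 5 and 7 were higher, among them Sec23a (1.65 and 1.80) and Sec24d (1.57 and 1.92), coat proteins of export vesicles. Of 14 general ER chaperones and oxidoreductases, 0 in Fbn1 C1039G/+ and 1 in wild type (Calr) were higher, with medians of 0.19 and 0.23. Hsp90b1 differed 1.18-fold and 1.30-fold, and Pdia6 1.03-fold and 1.17-fold. Fibrillar collagens were higher in 8 of 8 measured cases in both libraries, Col1a1 among them, which set the ranking. Of hypoxia-inducible genes, a group to which P4ha1, P4ha2 and Plod2 also belong, 0 were higher and 2 of 6 in Fbn1 C1039G/+ (Vegfa and Egln3) and 1 of 7 in wild type (Vegfa) were lower.

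Between genotypes the same lists were read in interstitial cells. By the 1.5-fold rule 0 genes passed in either direction in the export, cleavage and oxidation, ER chaperone and fibrillar collagen lists. Their median log2 ratios were 0.09, 0.14, 0.16 and 0.26, against 0.03 over all measured genes. Of the 14 ER chaperones, 12 had an interval above 1, against 41.6% of measured genes, and 0 below 1, against 21.6%. Sdf2l1 was at 34.6 CPM in Fbn1 C1039G/+ and 25.5 CPM in wild type (1.36-fold) and Hsp90b1 at 908 and 744 CPM (1.22-fold). Of 7 measured hypoxia-inducible genes Vegfa was lower, at 27.4 and 62.0 CPM (0.441-fold), while Pgk1 (1.19) and Ldha (1.12) were above 1.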

How the data were processed

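The deposited values are UMI counts, unnormalized, for each gene in each barcode; the authors made them with Cell Ranger on the mm10 build. The version is 3.1.0 per the submitters' processing notes and 5.0.1 per the file headers, and which was run was not settled. The choice of barcodes that hold cells was made before deposit. Free RNA was not subtracted, and levels of interstitial markers in other classes are given beside those of the members.

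Barcodes, classes and the interstitial threshold followed the rule stated with the results; barcodes that met both the macrophage and the endothelial rule (10 and 13) were in neither. UMIs were summed per class and library and divided by the class total (CPM, per 1000000). Intervals of single genes are 95% and exact: Poisson for levels, conditional binomial for ratios, Clopper-Pearson for shares. Bounds given with a members' median are medians of the members' own bounds, and are not an interval of the median. Log2 ratios used a pseudocount of 1 CPM. A gene passed when it was measured, differed 1.5-fold and had an interval excluding 1; no p-value was computed, as there is 1 library per genotype. Medians of lists are read against the median of all measured genes in the same comparison.

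Doublets were kept; Scrublet (scanpy 1.11.5) called 0 barcodes automatically in both libraries, so an alternative left out the 752 and 732 highest scores. Female cells had Xist and no Y-linked UMI, male cells the reverse. Thinning used a fixed seed. Genes were placed with GENCODE M21. Calculations used Python 3.11.15, numpy 2.4.6, scipy 1.17.1 and pandas 2.3.3, and the comparisons were tested on simulated counts.

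The members, gene lists, marker lists and comparisons were chosen with earlier results of these data known. The text names all members, Col1a1, for each member the 3 genes most correlated with it, and up to 4 genes of each list with the largest genotype ratio plus those past 1.5-fold; P4hb, Col1a2, Calr and Egln3 were named after their values were seen. In the list of general ER chaperones 14 of 16 names, and of hypoxia-inducible genes 13 of 14, were found in the files. The alternatives tried were other barcode and class thresholds, doublet removal, other denominators and cell weights, thinning, each sex, other level filters and pseudocounts, and other rankings of cells.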

Additional observations from a re-analysis of the deposited data

Results flagged for a closer look

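The genotype ratios of 3 genes lay on opposite sides of 1 in macrophages and in interstitial cells, with intervals that exclude 1 in both classes; the difference between the classes was not tested. Serpinh1 had a ratio of 0.572 in macrophages (24.9 CPM in Fbn1 C1039G/+ and 43.6 CPM in wild type) and 1.28 in interstitial cells. P3h1 had a ratio of 0.533 in macrophages (3.44 and 6.46 CPM, from 25 and 51 UMIs) and 1.25 in interstitial cells. Sparc had a ratio of 0.772 in macrophages (185 and 239 CPM) and 1.39 in interstitial cells. In the same macrophages Col1a1 had a ratio of 0.606. The 9 interstitial markers without Vim stood at a median of 2.56% of their interstitial level in Fbn1 C1039G/+ and 4.54% in wild type.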

How the results depend on the processing

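Alternatives were run for the 10 members only, between genotypes, across Col1a1 quintiles and in endothelial over interstitial cells; the members' medians kept their direction, and single genes that did not are named at the end. The members' median log2 genotype ratio in interstitial cells was 0.14, and it was 0.11 with a class threshold of 2%, 0.096 in male cells, 0.26 with at least 100 CPM (4 members) and 0.043 with equal shares of cells by Col1a1, where all measured genes had 0.041. In female cells 1 member (P4ha3) passed 1.5-fold in place of 0. The median ratio of the extreme Col1a1 quintiles in Fbn1 C1039G/+ was 0.64 with the 2% threshold, 1.09 with at least 100 CPM, 0.98 between 10 groups and 0.65 within 10 strata of depth. In wild type it was 0.80 with the 2% threshold, 0.84 after thinning, 1.41 with at least 100 CPM and 1.197 between 10 groups. The number of members higher across quintiles in Fbn1 C1039G/+ was 6 of 10 with the 2% threshold, in place of 8. It was 6 of 9 with cells ranked by Col1a2 and Col3a1 share, and 9 of 10 with cells weighted equally. In wild type these settings gave 8, 8 and 9 of 10. Shares of all genes under these settings are not given. With at least 100 CPM, 4 of 4 members passed across quintiles in each library, and the share of all genes at that level is not given. Plod2 and Fkbp10 reached 100 CPM there in the highest quintile alone, so they could only be called higher. The median of endothelial over interstitial cells with at least 100 CPM was -1.42 in Fbn1 C1039G/+ and -1.45 in wild type. Plod2 and Fkbp10 reached that level in interstitial cells alone. In male cells of Fbn1 C1039G/+ the median of endothelial over interstitial cells was -0.67. Of 120 single genotype ratios under alternatives, 29 lay outside the counting interval of the main ratio. That count leaves out the counting error of the alternative itself. Of 60 correlations with Col1a1, which depend on depth, 30 moved. P4ha3 ranged from 0.536 to 1.07, and P4ha2, Plod1 and Plod2 also reached the other side of 1, in 1, 5 and 1 of 12 alternatives. No paired analysis was possible because each genotype has 1 library. Depth limits P4ha3 outside interstitial cells, where it had 5 to 16 UMIs per class and library in endothelial cells and macrophages.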
